A study of Mus musculus with 8 samples.

Results

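The adrenergic receptors and the cAMP pathway behind them were followed through 9 genes in brown adipose tissue of mice labelled Prdm16 knockout: the receptors Adrb1, Adrb3, Adra1a and Adra2a, the adenylyl cyclases Adcy3, Adcy5 and Adcy6, the phosphodiesterase Pde3b and the protein kinase A subunit Prkar2b. They were taken as every non-control probe that the array names for these genes, which gave 15 probes of 39429, all kept by the signal filter, and 9 genes of the 21742 tested. Knockout RNA and wild-type RNA of the same age were set against each other on 8 2-colour arrays, 4 for 11-month-old mice and 4 for 6-week-old mice, which the design text calls biological replicates. The 4 groups were thus Prdm16 knockout and wild type at 11 months, and Prdm16 knockout and wild type at 6 weeks. The knockout was in Cy5 on 2 arrays of each age and in Cy3 on the other two. The labels name neither the promoter behind the deletion nor the deleted part of the gene, nor the sex, strain or housing temperature of the mice. The ages were run as separate batches, each on a slide of its own, so age and batch cannot be told apart. Since RNA came from whole tissue, fewer cells of a type and less RNA per cell cannot be told apart either.

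Noradrenaline released by sympathetic nerves drives heat production in brown fat through beta-adrenergic receptors. These couple through a stimulatory G protein to adenylyl cyclase, which makes cAMP. cAMP activates protein kinase A, which turns on lipolysis and the transcription of thermogenic genes such as Ucp1, while phosphodiesterases degrade cAMP and alpha-2 receptors act through inhibitory G proteins. Prdm16 encodes a zinc-finger transcriptional regulator of brown adipocyte identity.

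The pathway did not move as a unit. Adcy5 and Adrb3 rose in knockout tissue at both ages. Adrb1 fell at 11 months and rose at 6 weeks. Adra1a and Adcy3 fell and Pde3b rose at 11 months, and none of these 3 passed the test at 6 weeks. At 11 months 3 of the 9 genes rose and 3 fell at an adjusted p below 0.05, against 34.7% of all genes called (17.9% higher and 16.8% lower). At 6 weeks 3 rose and 0 fell, against 16.2% of all genes called (9.18% higher and 7.01% lower). The median log2 ratio of the 9 genes was -0.22 at 11 months and -0.11 at 6 weeks, against 0.0082 and -0.0011 over all genes. Adra2a, Adcy6 and Prkar2b passed at neither age by the probe that stands for each gene.

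**Figure D1:**
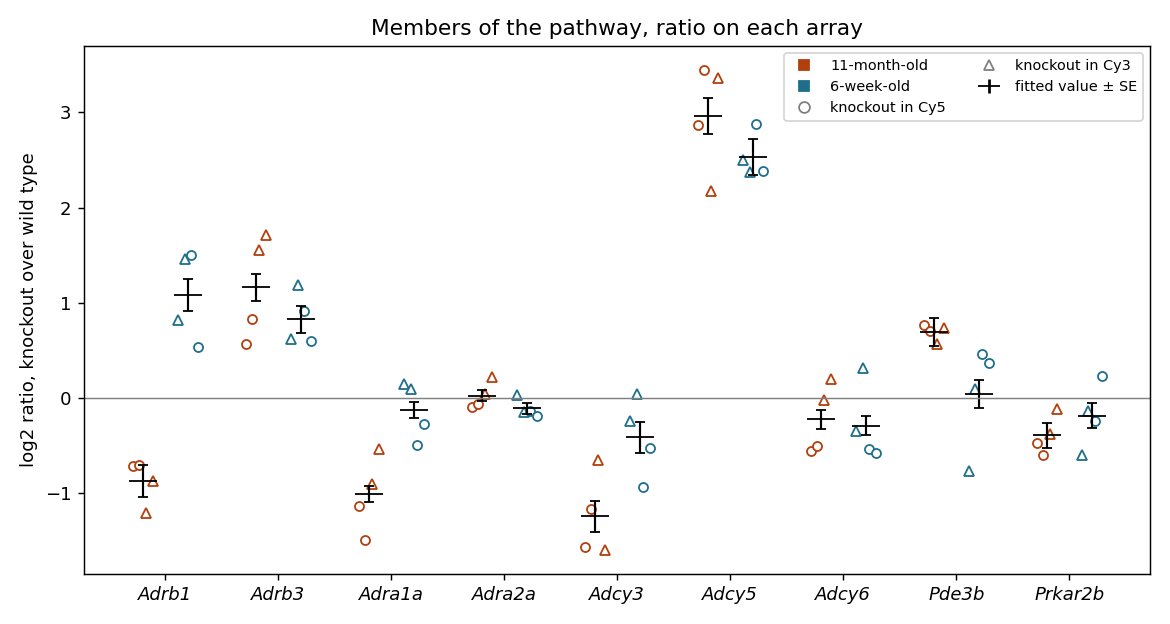
Log2 ratio of knockout over wild type (y axis) for the brightest probe of each gene (x axis) on each of the 4 arrays per age, with 11-month-old arrays left of 6-week-old arrays. Symbols mark the dye of the knockout sample, and black bars give the fitted value with its SE. Adrb1 lies below 0 on all 11-month arrays and above 0 on all 6-week arrays, and Adcy5 lies above 2 on all 8 arrays.

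The tissue carried its defining markers. All 6 brown adipocyte markers were well above background in every channel of every array. They fell in knockout tissue at 11 months, 6 of 6, with array medians from -4.06 to -2.71 and a summed level of 6.38e+04 to 3.47e+05 in knockout against 1.21e+06 to 1.66e+06 in wild type (linear intensity units). At 6 weeks 0 of 6 passed, with array medians from -0.70 to 0.03. All 5 fibroblast markers, 4 of 6 macrophage markers and 3 of 6 smooth muscle and pericyte markers rose at 11 months. Of 7 sympathetic nerve and Schwann cell markers 2 fell at 11 months, Th, the noradrenaline synthesis enzyme gene tyrosine hydroxylase (-0.44 ± 0.07, adjusted p = 0.00196), and the glial gene S100b (-2.37 ± 0.49), and 0 passed at 6 weeks, where Th gave 0.20 ± 0.07. Of 5 endothelial markers 2 fell at 6 weeks, Tie1 and Pecam1, and 0 passed at 11 months. At 6 weeks 1 macrophage marker rose, 1 smooth muscle and pericyte marker fell, and 0 fibroblast markers passed. Of 4 lymphocyte markers 0 passed at either age. Over all genes 17.9% were called higher and 16.8% lower at 11 months, and 9.18% and 7.01% at 6 weeks. The fibroblast median was 2.85 on 11-month array 3 and 0.47 to 0.65 on the other three. Skeletal muscle markers passed in 0 of 9 cases at either age, but their array medians were -0.30, -1.02, -0.29 and 1.71 at 11 months and 0.09, -2.80, 2.80 and -3.45 at 6 weeks. The part of these cell types in the results below was not tested, beyond the fits without arrays given beside them. The targeted gene was read by 1 probe, whose place relative to the deletion is not given. Prdm16 fell at both ages, -0.50 ± 0.15 at 11 months (adjusted p = 0.0372) and -0.58 ± 0.15 at 6 weeks (adjusted p = 0.042, log2 ± SE). Those calls were lost in 8 and 12 of 21 alternative analyses.

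Adrb1, the beta-1 receptor gene, changed in opposite directions at the 2 ages. Its brighter probe (chromosome 19, 56799215 to 56799274 of mm9, plus strand) gave log2 ratios of -0.72, -0.71, -1.21 and -0.88 on the 11-month arrays and 0.82, 1.46, 1.5 and 0.53 on the 6-week arrays. Every 11-month array was below 0 and every 6-week array above it. The channel level was 10.38 ± 0.30 in knockout and 11.25 ± 0.34 in wild type at 11 months, and 11.15 ± 0.50 in knockout and 10.08 ± 0.08 in wild type at 6 weeks (log2 intensity, SD, n = 4 each). Knockout and wild-type levels did not overlap at either age. The fitted change was -0.88 ± 0.17 at 11 months, 1.84-fold lower in knockout (adjusted p = 0.00571), and 1.08 ± 0.17 at 6 weeks, 2.11-fold higher (adjusted p = 0.00783). Taken over all kept probes, of which 33.8% were called at 11 months, 16.6% at 6 weeks and 17.6% for the difference between ages, the dimmer probe (56797242 to 56797301) had the same signs but smaller values, -0.27 ± 0.11 (adjusted p = 0.096) and 0.36 ± 0.11 (adjusted p = 0.0615), and passed at neither age. The mean of both probes gave -0.57 and 0.72, both called, and centring each array on its median in place of loess ended the 11-month call (-0.66, adjusted p = 0.0809).

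Adrb3, the beta-3 receptor gene and the main beta receptor of rodent adipocytes, rose at both ages. Its brighter probe (chromosome 8, 28336268 to 28336327 of mm9, minus strand) gave ratios of 0.57, 0.82, 1.55 and 1.71 at 11 months and 0.62, 1.18, 0.91 and 0.60 at 6 weeks. All 8 ratios were above 0, and the 2 higher ones at 11 months came from the arrays with knockout in Cy3. The dye term of the model is shared by the ages, and the 6-week ratios showed no such split. With the dye effect removed, the 11-month ratios were 0.84, 1.09, 1.28 and 1.44, so part of the shift remained. The level was 16.05 ± 0.50 in knockout and 14.88 ± 0.10 in wild type at 11 months, and 16.08 ± 0.21 in knockout and 15.25 ± 0.10 in wild type at 6 weeks, with no overlap at either age. The fitted change was 1.16 ± 0.14, or 2.24-fold, at 11 months (adjusted p = 0.000696) and 0.83 ± 0.14, or 1.77-fold, at 6 weeks (adjusted p = 0.0106). The second probe, 28337864 to 28337923, gave 1.19 ± 0.13 and 0.86 ± 0.13, both called. Without the 3 arrays with the largest skeletal muscle medians, all 6-week-old, the remaining 6-week array left 0.15 (adjusted p = 0.624), with its spread assumed to be that of the other arrays. Leaving out 1 such array per age kept the call.

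Adra1a, the alpha-1A receptor gene, whose product couples to calcium signalling rather than to cAMP, fell at 11 months. Its ratios were -1.13, -1.49, -0.90 and -0.54 at 11 months and 0.15, 0.09, -0.49 and -0.27 at 6 weeks (chromosome 14, 67352013 to 67352072 of mm9). The 11-month arrays were all lower than any 6-week array. Knockout averaged 8.51 ± 0.50 and wild type 9.52 ± 0.24 at 11 months, without overlap, and knockout 9.01 ± 0.22 and wild type 9.14 ± 0.39 at 6 weeks, with overlap. The fitted change was -1.02 ± 0.08 at 11 months, 2.02-fold lower (adjusted p = 0.000133), and -0.13 ± 0.08 at 6 weeks (adjusted p = 0.327). The scanner software's own log ratio gave a larger fall at 11 months, -1.83. On 11-month array 3 that ratio was -3.03 and the authors' deposited value -2.39, against -0.90 here.

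Adra2a, the alpha-2A receptor gene, was dim. Its probe was well above background on 2 of 4 arrays in knockout and 1 of 4 in wild type at 11 months, and on 3 of 4 in each at 6 weeks. Ratios lay between -0.10 and 0.22 at 11 months and between -0.19 and 0.03 at 6 weeks, and the fitted values of 0.02 ± 0.06 and -0.11 ± 0.06 did not pass (adjusted p = 0.809 and 0.221).

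Adcy5, an adenylyl cyclase inhibited by calcium and by inhibitory G proteins, had the largest change of the 9 genes. Its brightest probe (chromosome 16, 35304398 to 35304457 of mm9, plus strand) gave ratios of 2.86, 3.45, 2.18 and 3.37 at 11 months and 2.50, 2.37, 2.88 and 2.39 at 6 weeks. No array fell below 2 by this probe. The value of 11-month array 3 depended on the processing: it was the lowest of the 8 here, but the highest with the scanner software's log ratio (4.45) and in the authors' deposited table (3.89). Knockout averaged 11.43 ± 0.36 and wild type 8.47 ± 0.30 at 11 months, and knockout 11.06 ± 0.30 and wild type 8.52 ± 0.28 at 6 weeks, far from overlap at both ages. The fitted change was 2.96 ± 0.19, or 7.80-fold, at 11 months (adjusted p = 4.85e-05) and 2.54 ± 0.19, or 5.80-fold, at 6 weeks (adjusted p = 0.000754). At 11 months the scanner software's log ratio gave 3.96, and a fit of the values the authors deposited gave 3.52, both larger. It ranked 31 from the top of 21742 genes at 11 months and 10 at 6 weeks. The other 2 probes within the same stretch of the gene were called at both ages, at 2.61 and 2.27 and, for the dimmest, at 1.63 and 1.81. On 11-month array 3 these 2 probes gave 1.75 and, for the dimmest, 0.45. With the scanner software's log ratio they gave 3.48 and 2.95 on that array.

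Adcy3, a cyclase activated by the stimulatory G protein, fell at 11 months. Its probe (chromosome 12, 4211535 to 4211594 of mm9) gave ratios of -1.57, -1.17, -0.66 and -1.60 at 11 months and -0.24, 0.04, -0.94 and -0.53 at 6 weeks. All 11-month arrays were below 0, and the ages overlapped before the dye effect was removed. That overlap came from 11-month array 3, whose value depended on the processing. It was the highest of its age here, but the lowest with the scanner software's log ratio (-2.32) and in the authors' deposited table (-1.92). With either of those the ages did not overlap. Knockout averaged 8.25 ± 0.40 and wild type 9.50 ± 0.41 at 11 months, without overlap, and knockout 9.11 ± 0.48 and wild type 9.53 ± 0.57 at 6 weeks, with overlap. The fitted change was -1.25 ± 0.16, 2.38-fold lower, at 11 months (adjusted p = 0.000849) and -0.42 ± 0.16 at 6 weeks (adjusted p = 0.112). The 6-week value passed in 3 of 21 alternatives: with each age fitted alone (adjusted p = 0.045), without 11-month array 4 (adjusted p = 0.0291) and without the array of each age with the largest skeletal muscle median (adjusted p = 0.0394). The scanner software's log ratio gave -2.03 at 11 months.

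Adcy6, a close relative of Adcy5 also inhibited by calcium, gave ratios of -0.57, -0.50, -0.02 and 0.20 at 11 months and -0.35, 0.31, -0.54 and -0.59 at 6 weeks. Both ages straddled 0, and the arrays with knockout in Cy5 were lower than those with knockout in Cy3 at each age. The fitted values were -0.22 ± 0.10 at 11 months and -0.29 ± 0.10 at 6 weeks (adjusted p = 0.122 and 0.0846). Each passed in 1 of 21 alternatives, without 6-week array 1 at 11 months (adjusted p = 0.0333) and without 6-week array 2 at 6 weeks (adjusted p = 0.0439).

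Pde3b, the insulin-activated phosphodiesterase that lowers cAMP in adipocytes, rose at 11 months. Its probe (chromosome 7, 121681370 to 121681429 of mm9) gave ratios of 0.76, 0.70, 0.56 and 0.74 at 11 months and -0.77, 0.10, 0.46 and 0.36 at 6 weeks. The 11-month arrays were close together, whereas 6-week array 1 alone was below 0. Knockout averaged 14.88 ± 0.22 and wild type 14.19 ± 0.13 at 11 months, without overlap, and knockout 14.40 ± 0.37 and wild type 14.36 ± 0.26 at 6 weeks, with overlap. The fitted change was 0.69 ± 0.15, or 1.61-fold, at 11 months (adjusted p = 0.00918) and 0.04 ± 0.15 at 6 weeks (adjusted p = 0.889). Without the array of each age with the largest skeletal muscle median the 11-month value was 0.59 and the call ended (adjusted p = 0.0689).

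Prkar2b, the type II-beta regulatory subunit that holds protein kinase A inactive until cAMP binds, was bright and its 3 probes differed in call. The brightest gave ratios of -0.48, -0.60, -0.38 and -0.12 at 11 months and -0.60, -0.14, -0.24 and 0.23 at 6 weeks. The 11-month arrays were all below 0 and the 6-week arrays lay on both sides. Its fitted values were -0.39 ± 0.13 at 11 months (adjusted p = 0.0513) and -0.19 ± 0.13 at 6 weeks (adjusted p = 0.363). The middle probe fell at 11 months, -0.54 ± 0.16 (adjusted p = 0.0308), and not past the test at 6 weeks, -0.40 ± 0.16 (adjusted p = 0.12). The dimmest probe fell at both ages, -0.64 ± 0.11 (adjusted p = 0.00354) and -0.47 ± 0.11 (adjusted p = 0.0285). At 11 months the gene passed in 11 of 21 alternatives, among them the mean of its 3 probes (-0.52, adjusted p = 0.0145). No spot was marked as saturated.

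**Figure D2:**
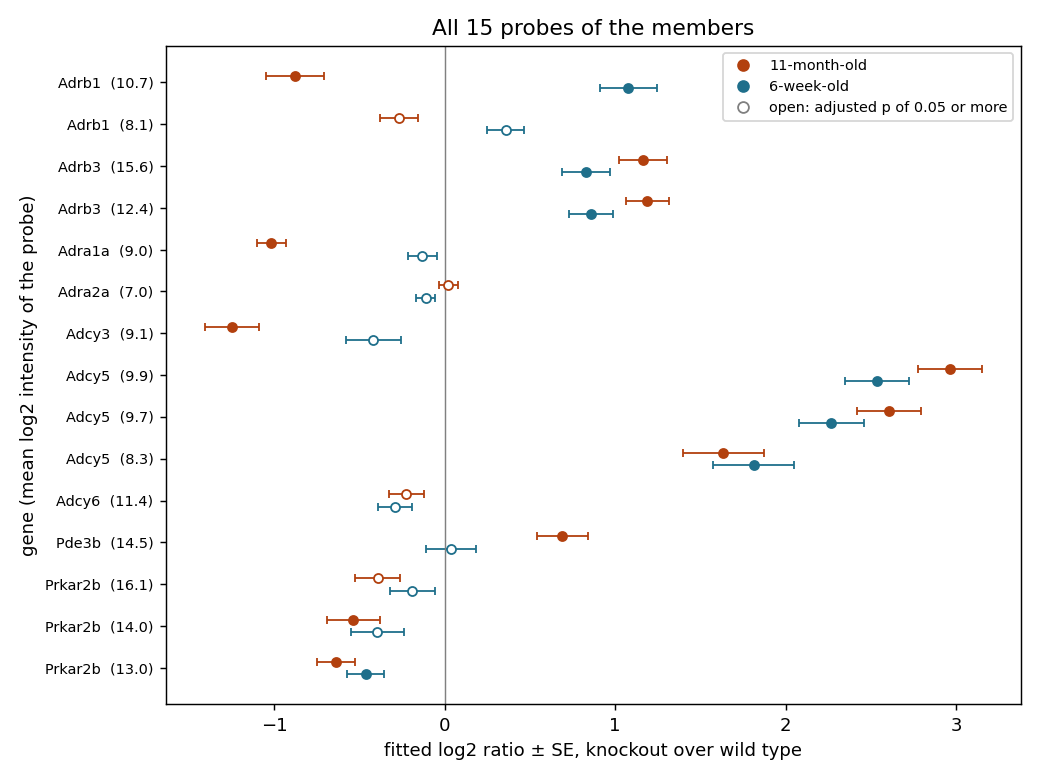
Fitted log2 ratio of knockout over wild type with its SE (x axis) for all 15 probes (y axis, gene and mean log2 intensity), 11-month-old above 6-week-old, with open symbols where the adjusted p over 26853 probes was 0.05 or more. Both Adrb3 probes and all 3 Adcy5 probes were called at both ages, while the dimmer Adrb1 probe was called at neither.

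The plot of channel levels gives both sides of each ratio. Levels are set across ages only as a description, since the ages were separate batches. They cannot show whether knockout or wild type changed with age. The knockout level of Adrb1 was 10.38 at 11 months and 11.15 at 6 weeks, while its wild-type level was 11.25 and 10.08.

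**Figure D3:**
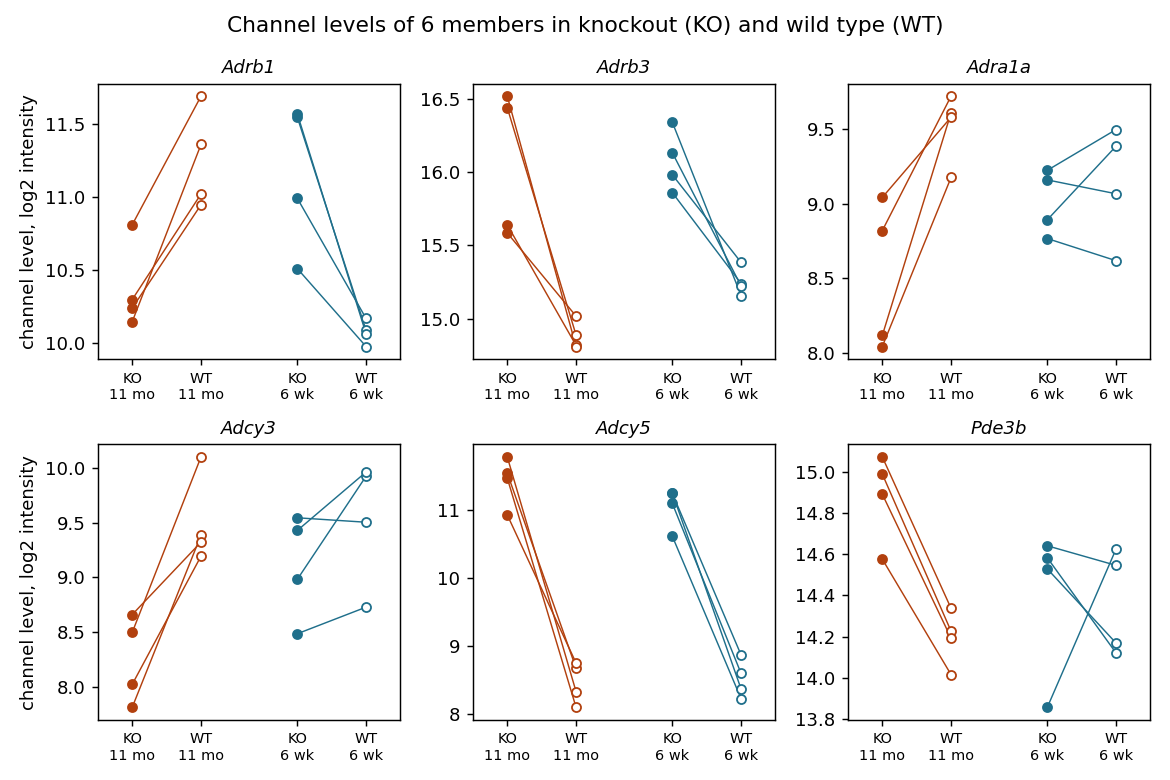
Channel level in log2 intensity (y axis) of 6 genes in knockout (filled, left) and wild type (open, right) at 11 months and 6 weeks, with lines joining the 2 channels of an array. The lines of Adrb1 slope in opposite directions at the 2 ages, and those of Adcy5 run from near 11 in knockout to between 8 and 9 in wild type.

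The difference between ages, 11 months minus 6 weeks, was tested in the same model. It passed for 3 of 9 genes, all lower at 11 months, against 18.2% of all genes (8.46% higher and 9.71% lower). Adrb1 differed by -1.96 ± 0.24 (adjusted p = 0.00296), and its dimmer probe by -0.63 ± 0.15 (adjusted p = 0.0309). Adra1a differed by -0.89 ± 0.12 (adjusted p = 0.00392), and by -1.68 with the scanner software's log ratio and -1.34 in a fit of the values the authors deposited. That call ended under median centring (adjusted p = 0.058) and without the 3 arrays with the largest skeletal muscle medians (adjusted p = 0.114). Adcy3 differed by -0.83 ± 0.23 (adjusted p = 0.0412), close to the threshold: the call was lost in 11 of 21 alternatives, while the scanner software's log ratio gave -1.54 (adjusted p = 0.00656). Among the 11 were the fit with replicate number as a block (-0.83, adjusted p = 0.0612), the fit that kept dim probes (adjusted p = 0.0508) and those without 6-week array 1, 2 or 4 or 11-month array 1 or 2 (adjusted p = 0.057 to 0.113). Leaving out the array of each age with the largest muscle median gave -0.49 (adjusted p = 0.121).

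Adrb3 (0.33 ± 0.20, adjusted p = 0.284), Adcy5 (0.43 ± 0.27, adjusted p = 0.299) and Pde3b (0.65 ± 0.21, adjusted p = 0.0692) did not pass. A difference between ages is therefore not shown for these 3. For Pde3b the size of the difference depended in part on 6-week array 1. Without that array the difference was smaller, 0.41, but past the test (adjusted p = 0.0344). The Pde3b difference passed in 3 of 21 alternatives. With the dye effect removed, the arrays of the 2 ages did not overlap for 5 of 9 genes, Adrb1, Adra1a, Adra2a, Adcy3 and Pde3b, against 28.7% of all genes. For the dim Adra2a the gap was narrow, from -0.049 (highest at 6 weeks) to -0.042 (lowest at 11 months). Its difference between ages did not pass (0.13 ± 0.08, adjusted p = 0.291).

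Promoter sequence was available for 5 of the 9 genes (7 promoters of RefSeq, build GRCm38.p6), and the 250 bases before the start are shown for 3: Adrb1, whose direction differed between the ages, Adcy5, which changed most, and Adra2a, which did not pass. Capitals mark TGACG, the short form of the cAMP response element. They are Adrb1 at chr19:56721867-56722116 (plus strand), Adcy5 at chr16:35154614-35154863 (plus strand) and Adra2a at chr19:54045009-54045258 (plus strand).
Adrb1: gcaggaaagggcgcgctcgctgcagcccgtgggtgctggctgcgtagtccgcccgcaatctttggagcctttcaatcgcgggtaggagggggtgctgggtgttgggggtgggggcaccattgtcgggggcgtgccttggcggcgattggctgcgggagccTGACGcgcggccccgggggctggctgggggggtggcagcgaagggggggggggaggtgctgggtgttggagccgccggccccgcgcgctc
Adcy5: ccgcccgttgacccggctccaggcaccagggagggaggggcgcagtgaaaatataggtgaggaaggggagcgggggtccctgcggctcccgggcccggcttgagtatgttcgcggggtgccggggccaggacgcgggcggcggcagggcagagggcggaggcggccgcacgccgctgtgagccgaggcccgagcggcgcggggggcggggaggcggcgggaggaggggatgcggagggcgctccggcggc
Adra2a: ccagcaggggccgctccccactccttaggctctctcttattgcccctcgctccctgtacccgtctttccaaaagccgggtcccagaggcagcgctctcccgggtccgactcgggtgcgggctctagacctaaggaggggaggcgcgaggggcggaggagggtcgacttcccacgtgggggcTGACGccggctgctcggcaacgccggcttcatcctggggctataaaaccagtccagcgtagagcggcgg
TGACG begins 90 bases before the start in Adrb1 and 69 bases before it in Adra2a, and is absent from the windows of Adcy3, Adcy5 and Prkar2b. On either strand 17.8% of 32851 promoters hold it. The full element TGACGTCA (1.55% of promoters), the NR4A-type element AAAGGTCA (1.34%) and a PPAR-type direct repeat (0.0335%) had no match in these 7 windows. A match describes letters only.

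Other genes of the pathway were read from 7 lists. They covered receptors, G proteins, cyclases, phosphodiesterases, kinase subunits and anchors, the transcriptional response to cAMP, and lipolysis. The lists were written with earlier results of these data known, so the shares called are a description only. Of 129 genes 124 were measured. At 11 months 37 rose and 24 fell, 49.2% called against 34.7% of all genes, with a median of 0.09. At 6 weeks 23 rose and 13 fell, 29.0% called against 16.2% of all genes, with a median of 0.01.

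Among 27 receptor genes 10 rose and 3 fell at 11 months, and 5 rose and 3 fell at 6 weeks. That is 48.1% and 29.6% called, against 34.7% and 16.2% of all genes. Tshr, the thyrotropin receptor gene, which signals through cAMP, rose at both ages (1.67 ± 0.12 and 1.72 ± 0.12), as did Hcar2, a receptor for ketone bodies that inhibits lipolysis (2.05 ± 0.20 and 1.37 ± 0.20). Mc2r, the corticotropin receptor gene, rose at 11 months (1.83 ± 0.24) and gave 0.72 ± 0.24 at 6 weeks (adjusted p = 0.081). The prostaglandin receptor gene Ptger3 rose by 0.97 ± 0.13 at 11 months and by 2.16 ± 0.13 at 6 weeks, a difference that passed (-1.19, adjusted p = 0.00565).

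Among 24 G protein genes and regulators 9 rose and 6 fell at 11 months, and 3 rose and 4 fell at 6 weeks. That is 62.5% and 29.2% called, against 34.7% and 16.2% of all genes. Gnas, which encodes the stimulatory G protein alpha subunit and other products of its locus, fell at both ages, -2.06 ± 0.17 at 11 months (adjusted p = 0.000133) and -1.16 ± 0.17 at 6 weeks (adjusted p = 0.00642). Rgs2, a regulator of G protein signalling, fell at both ages as well (-1.55 ± 0.43 and -1.68 ± 0.43). Gnai1, an inhibitory alpha subunit gene, rose by 1.58 ± 0.17 at 11 months and gave 0.46 ± 0.17 at 6 weeks, and this difference passed (1.12, adjusted p = 0.0178).

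Of the 5 other cyclase genes measured, Adcy9 fell at both ages (-0.74 and -0.73). Adcy7 rose at 11 months (0.37 ± 0.07), Adcy4 fell at 6 weeks (-0.45 ± 0.07), and the soluble cyclase gene Adcy10 rose at 6 weeks with a large error (2.39 ± 0.59, adjusted p = 0.0334). Among 15 phosphodiesterase genes 4 rose and 4 fell at 11 months, and 2 rose and 2 fell at 6 weeks. That is 53.3% and 26.7% called, against 34.7% and 16.2% of all genes. Pde4a, a cAMP-specific enzyme gene, fell at both ages (-1.63 ± 0.12 and -0.68 ± 0.12), and Pde4d fell at 11 months (-1.21 ± 0.15) with -0.04 ± 0.15 at 6 weeks. For both the difference between ages passed (adjusted p = 0.0114 and 0.0106). Pde1b rose at both ages (0.96 ± 0.08 and 0.72 ± 0.08).

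Kinase subunits, anchors and other effectors (23 genes) had 8 higher and 4 lower at 11 months, and 0 higher and 2 lower at 6 weeks. The share called was 52.2% at 11 months, above the 34.7% of all genes. At 6 weeks it was 8.7%, below the 16.2% of all genes. Akap1, which anchors protein kinase A at mitochondria, fell at 11 months (-1.24 ± 0.21). Prkacb, a catalytic subunit gene, fell at both ages (-0.32 ± 0.09 and -0.39 ± 0.09). Of 23 genes listed for the transcriptional response to cAMP 1 rose and 5 fell at 11 months. At 6 weeks 6 rose and 0 fell. That is 26.1% called at each age, below the 34.7% of all genes at 11 months and above the 16.2% at 6 weeks. The list mixes regulators of the response with genes that respond. The 6 that rose at 6 weeks were Fosl2, Sik2, Atf4, Sik3, Atf1 and Mapk14. Ucp1, Dio2 and Ppargc1a were among the 17 that did not pass there. Ucp1, the uncoupling protein gene, fell at 11 months (-4.05 ± 0.44) and gave 0.13 ± 0.44 at 6 weeks, and the orphan receptor gene Nr4a2 fell at 11 months (-1.62 ± 0.20) and gave -0.24 ± 0.20 at 6 weeks. Fosl2, an AP-1 subunit gene, rose at 6 weeks (1.31 ± 0.25), as did Sik2, a kinase gene whose product is inhibited by protein kinase A (0.92 ± 0.09). Ucp1 and Dio2 also stand in the brown adipocyte marker list above.

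Of 8 lipolysis genes 4 rose and 1 fell at 11 months, and 6 rose and 0 fell at 6 weeks. That is 62.5% and 75% called, against 34.7% and 16.2% of all genes. Mgll, the monoacylglycerol lipase gene, rose at both ages (0.71 ± 0.15 and 0.86 ± 0.15), and so did Plin1, the lipid droplet coat gene (0.68 ± 0.05 and 0.46 ± 0.05). G0s2, an inhibitor of adipose triglyceride lipase, fell at 11 months (-0.60 ± 0.17) and rose at 6 weeks (0.91 ± 0.17), a difference of -1.51 (adjusted p = 0.00601). Plin1 and Fabp4 are also in the adipocyte marker list, of which 5 of 6 rose at 11 months and 4 of 6 at 6 weeks.

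**Figure D4:**
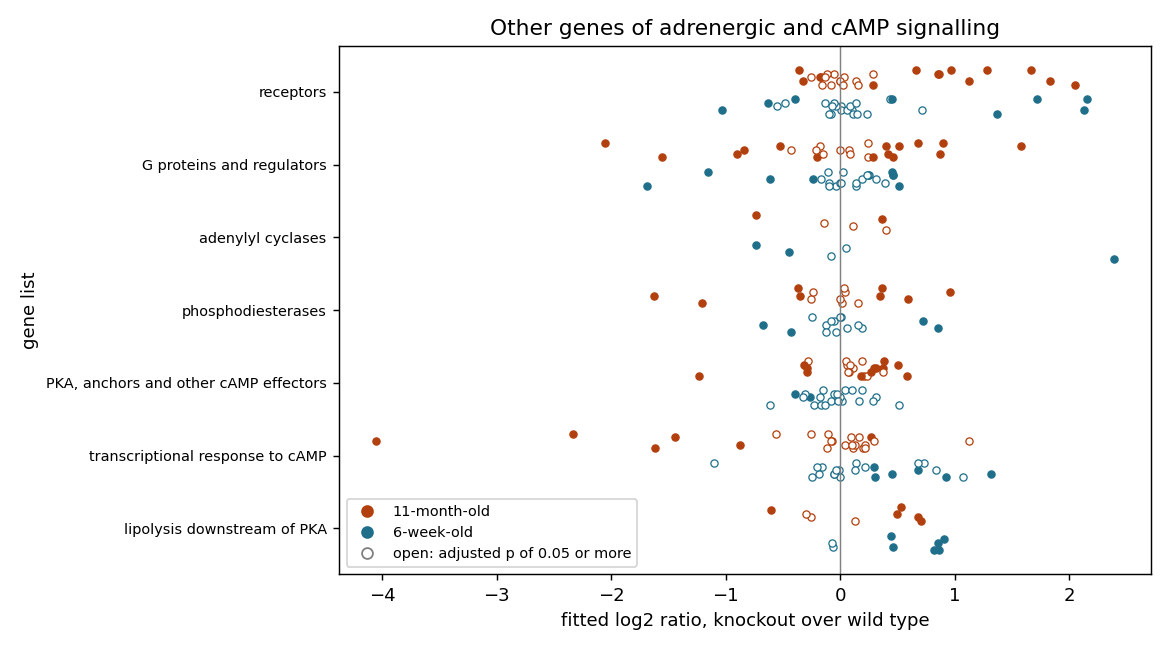
Fitted log2 ratio of knockout over wild type (x axis) of the 124 other pathway genes in 7 lists (y axis), 11-month-old above 6-week-old in each list, with open symbols where the adjusted p was 0.05 or more. Calls lie on both sides of 0 in most lists. In the list for the transcriptional response to cAMP they are mainly below 0 at 11 months and all above 0 at 6 weeks.

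The genes whose dye-adjusted ratios followed each member most closely over the 8 arrays are given as a description only, since the arrays share 2 batches. For Adrb1 these were Zfyve26 (r = 0.991) and Leng1 (r = 0.989). For Adcy5 the nearest was Cobll1 (r = 0.991), and for Adcy3 they were Rab21 (r = 0.988) and Plppr4 (r = 0.985). Over all 9 members the 2 nearest genes had r between 0.972 and 0.997, chosen from all genes tested.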

How the data were processed

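Knockout and wild-type brown fat RNA was hybridized in pairs to 8 Agilent 2-colour arrays with dye exchange, per the labels. Intensity values deposited by the authors are a mean foreground and a median local background for each spot and dye, made, per the file headers, with Agilent Feature Extraction 10.10.1.1 at 11 months and 10.5.1.1 at 6 weeks, with probe positions in mm9. Beside them stands the scanner software's log10 ratio, per the file headers. The authors' deposited value table holds log2 ratios. The submitters' processing notes name limma, with settings not given in the sources used here. These ratios were matched by spot number, and their sign followed the knockout's dye. Both served as alternatives.

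Here intensities were corrected with normexp (offset 50) and loess with limma 3.58.1 under R 4.3.3, with control and outlier spots at weight 0, and turned to log2 knockout over wild type by the labels' dyes. Channel levels are after Aquantile scaling. Probes well above background in at least 4 of 16 measurements, and present on 3 or more arrays of each age, were kept (26853); 61.2% to 68.2% of spots per channel were well above background. The brightest probe stood for each of 21742 genes, of which 14810 took their symbol from RefSeq (GRCm38.p6) and 6932 from the array. A single model held a term for each age and a dye term common to both (5 residual degrees of freedom). Values are log2 ± SE of this model, p-values were Benjamini-Hochberg adjusted over all genes (over all kept probes where several probes of a gene are given), and calls were made below an adjusted p of 0.05. The fit was tested on simulated data. The number of arrays limits the precision.

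The members, lists and the rule for named genes were chosen with earlier results of these data known. The rule took all 9 genes with every probe, Prdm16, up to 3 called genes with the largest change per list and age, and the 2 genes most like each member; not all are given. Alternatives, 22 in all and at most 21 for any comparison, changed the background correction, normalization, filter, probe choice, dye term, replicate block and arrays. A check of shared replicate numbers between the ages was run in 2 ways. With a shared dye term removed, same-number arrays correlated at 0.459, 0.44, 0.168 and 0.318, all over 0.1, which would pair them. With the dye effect removed within each age they correlated at 0.0925, 0.0925, -0.0602 and -0.0602. These values are equal in pairs by construction, since the deviations of the 2 arrays of an age and dye mirror each other. They are therefore not separate correlations for each replicate number. The second way was adopted after the fits with and without the block had been seen, because same-number arrays had a fixed relation of dye orientation, so the blocked value is printed wherever it changes a call. No protein sequence was used.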

Additional observations from a re-analysis of the deposited data

Results flagged for a closer look

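The change in knockout tissue differed between 11 months and 6 weeks, by a test of the difference itself, for Adrb1 (-1.96, adjusted p = 0.00296), Adra1a (-0.89, adjusted p = 0.00392) and Adcy3 (-0.83, adjusted p = 0.0412). Age and array batch cannot be told apart here.

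On 11-month array 3, the dye-adjusted ratio of the brighter Adrb1 probe was -1.16, apart from the other 3 arrays of that age, which lay between -0.83 and -0.76 (Dixon ratio 0.831, just above the critical value). Chance flags about 1 in 20 such groups, and 18 were examined. The dimmer probe did not show this. Its dye-adjusted ratio on array 3 was -0.22, within the range of the other 3 arrays, -0.49 to -0.18. The same array had the highest fibroblast marker median, 2.85. The part of that in the Adrb1 value was not tested, and without the array Adrb1 was still called at 11 months.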

How the results depend on the processing

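Leaving out each array in turn gave 6 to 8 of 9 members called at 11 months, 3 to 4 at 6 weeks and 2 to 3 for the difference between ages. Median centring in place of loess gave 1 for the difference, against 3; every other setting stayed within 1.5 times the counts reported. No member or Prdm16 changed sign past the test in any alternative. Median centring moved counts over all genes to 4912 at 11 months, 948 at 6 weeks and 552 for the difference, against 7544, 3520 and 3952, and the share of calls that were higher to 70.8%, 70.0% and 59.6%, against 51.7%, 56.7% and 46.6%. The scanner log ratio gave 2278 genes at 6 weeks, and no dye term gave 2518 for the difference. Leaving out each array gave 5027 to 7643, 1238 to 4278 and 2118 to 3225 genes.

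Both exclusions by skeletal muscle medians were chosen after seeing the data. The exclusion of the 3 arrays with the largest medians was tried before the other; it left 1 array at 6 weeks and gave 7, 2 and 2 members called, and 1138 genes at 6 weeks and 562 for the difference. The exclusion of 1 array per age, tried next, gave 6, 4 and 2 members, and 1761 genes for the difference. The replicate block ended the call of Adcy3 (-0.83, adjusted p = 0.0612) and changed no other call among the members; 2 remained called for the difference. By the same-number values of the check with a shared dye term the replicate numbers would count as paired. That check cannot tell replicate number from dye orientation. The scanner log ratio and the deposited table made the Adcy5 difference pass (1.19 and 0.89). The causes were not tested. Adra2a was removed by the filter of 12 measurements well above background.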
